A study of Rattus norvegicus with 12 samples.

Results

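Calcium handling of heart muscle cells was followed through 10 genes, Atp2a2, Ryr2, Pln, Slc8a1, Casq2, Cacna1c, Trdn, Jph2, Camk2d and Hrc, of 14217 genes with a probe set of their own. A probe set, the group of short probes that an Affymetrix array designs for 1 transcript, was taken as a member where the platform annotation gave it exactly 1 of these symbols. That gave 25 probe sets out of 31042 that were not controls, and 23 of the 25 were bright enough to be tested among 18625. The diabetic rats were male Sprague-Dawley rats injected once with streptozotocin, a toxin of the insulin-producing beta cells, at 65 mg/kg when 8 weeks old. The non-diabetic rats received citrate buffer. Neither group had its blood sugar controlled in the 10 weeks before the operation or after it. In the operated groups the left anterior descending coronary artery was tied without reperfusion, and the left ventricular free wall away from the infarct was taken 1, 7, 14, 28 or 56 days later. Sham operated rats of each condition were also sampled, and the sources used here do not say how long after the operation. Labelled ages were 18 to 26 weeks, and the 22 weeks of the non-diabetic day 56 rats sit beside 26 weeks of the diabetic ones, although both protocols give the same interval. The RNA of 3 rats was pooled for an array, and sham and each of the 5 days had 1 diabetic and 1 non-diabetic array, 12 in all.

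In each heartbeat, calcium enters a cardiomyocyte through the L-type channel and opens the ryanodine receptor, which lets much more calcium out of the sarcoplasmic reticulum, the calcium store of the cell. The contraction ends when the pump SERCA2a takes calcium back into the store and the sodium-calcium exchanger moves the rest out of the cell. Phospholamban brakes the pump, luminal proteins hold calcium near the release channel, and a calcium-activated kinase tunes several of these steps. Slower calcium uptake and altered release are known features of failing and of diabetic hearts.

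As there was 1 array for each condition and time point, the error of a test is the spread of the diabetes difference among the 6 pairs of arrays, and a spread between rats was not measured. Values are log2 of the deposited intensity plus 16, and the levels of different probe sets are not set against each other. The beta-actin measure of RNA quality split the arrays, while that of GAPDH did not. The beta-actin 3' minus 5' log2 difference was 0.98 to 1.00 on the 4 arrays of days 1 and 7 and 0.37 to 0.59 on the 8 others. For GAPDH it was 0.32 to 0.36 on the same 4 arrays and 0.11 to 0.48 on the others. Results for day 1, day 7 and the slope cannot be told apart from the beta-actin split. Of 12 cardiomyocyte markers 11 had a probe set, all 11 were kept, and their summed intensity was 50400 to 66800 on diabetic and 58000 to 64100 on non-diabetic arrays. The skeletal muscle forms of the pump, the release channel and the L-type channel, Atp2a1, Ryr1 and Cacna1s, were too dim to be kept. Other skeletal muscle markers were not: 9 of 10 had a probe set and 5 were kept. Among the kept was Casq1, the skeletal muscle calsequestrin, at 7.07 to 8.65. The summed intensity of the 9 was 2640 to 4000 on diabetic and 3330 to 5860 on non-diabetic arrays. In pooled tissue, fewer cardiomyocytes and less RNA per cardiomyocyte cannot be told apart.

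Diabetes did not move any of the 10 genes past the threshold over all 6 pairs. None of the 23 probe sets had an adjusted p under 0.05 in limma's fit, where 0.376% of all 18625 probe sets did, and over 1 leading probe set per gene that background was 0.471%. Unadjusted p-values under 0.05 were found for 2 of the 23, against 10.6% of all probe sets. The members' median difference was 0.14 on the log2 scale, beside 0.013 over all probe sets, and adjusted p-values ran from 0.221 to 0.992. Without the day 28 pair the members' median was 0.02, with 12 of the 23 above 0. The 2 probe sets with the smallest unadjusted p lay in opposite directions, Jph2 lower and Casq2 higher in diabetic myocardium in each of the 6 pairs.

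**Figure D1:**
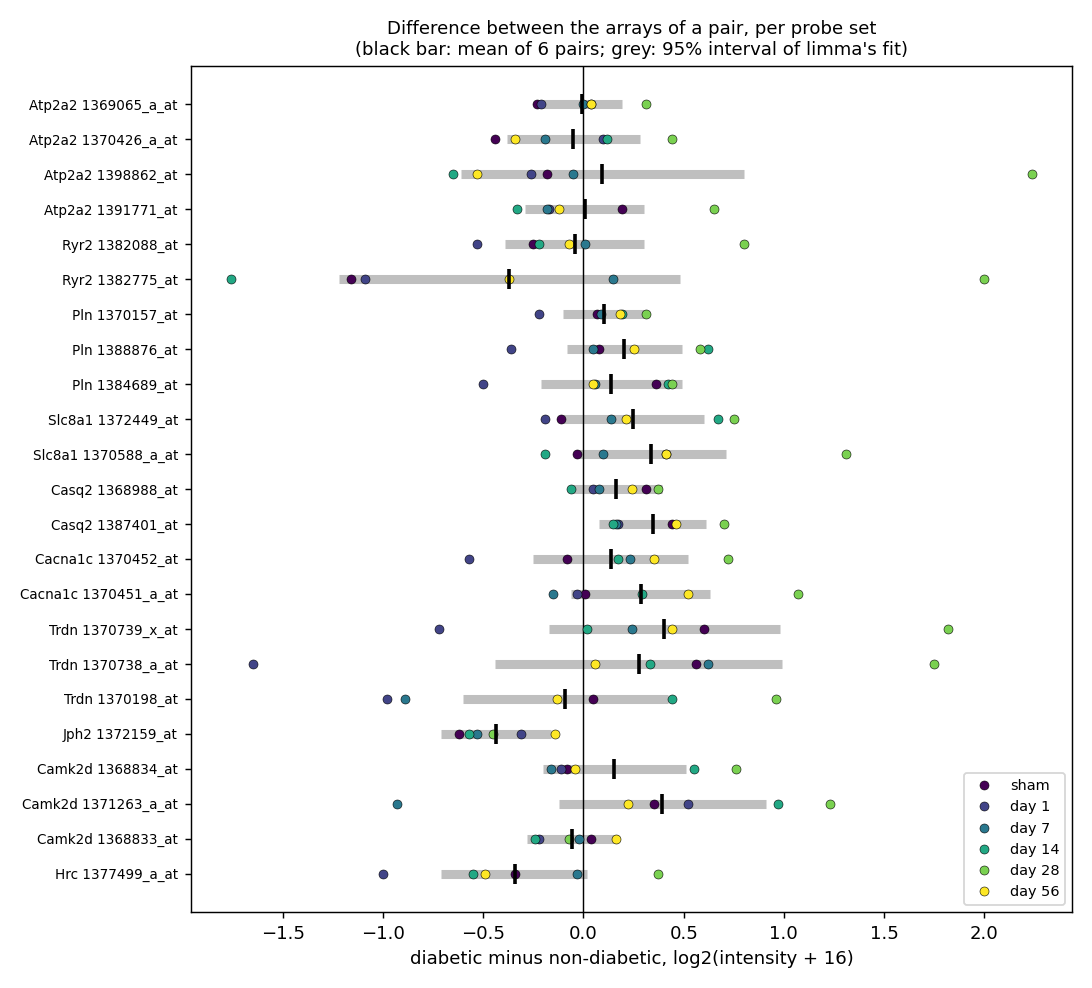
Diabetic minus non-diabetic difference in log2(intensity + 16) for the 23 tested probe sets, with 1 point per pair of arrays coloured by time point, a black bar for the mean of 6 pairs and a grey band for the 95% interval of limma's fit. The day 28 points lie farthest to the right for most probe sets, and the points of Jph2 all lie left of 0.

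The pump gene Atp2a2, which encodes SERCA2a in heart muscle, varied little over the 12 arrays, by 0.33 on the log2 scale. Its leading probe set (1369065_a_at), the one with the highest mean, read 12.53 in diabetic sham myocardium and 12.49, 12.78, 12.58, 12.82 and 12.79 on days 1, 7, 14, 28 and 56, against 12.76 in non-diabetic sham myocardium and 12.69, 12.78, 12.54, 12.50 and 12.76 on the same days. The groups overlapped throughout. The difference for diabetes was -0.01 ± 0.09 (SE, 6 pairs), with a 95% interval of -0.21 to 0.19 and an adjusted p of 0.980 from limma. A dimmer probe set of the gene (1398862_at) varied far more. It read 6.92 in diabetic sham and 8.24, 8.45, 7.43, 8.76 and 8.81 on the 5 days, against 7.10 in non-diabetic sham and 8.50, 8.51, 8.08, 6.52 and 9.34. All ligated arrays but the non-diabetic day 28 array read above both sham arrays there. At day 56 it stood 2.06 ± 0.55 above sham, with an adjusted p of 0.173 from limma. Another probe set (1370426_a_at) read 9.07 to 9.96 on diabetic and 9.46 to 10.26 on non-diabetic arrays, and another (1391771_at) 4.99 to 5.80 on diabetic and 5.13 to 5.82 on non-diabetic arrays. The last (1375164_at), with every array at 4.70 or below, was not kept for testing.

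The start of Atp2a2 lies in sequence rich in G and C. The promoters of Atp2a2, Ryr2 and Pln are shown because Atp2a2 and Ryr2 moved most closely with the rest of the members, while Pln includes the probe set that fell with the smallest p at day 1. They are the 250 bases before the RefSeq start sites in the GRCr8 build, at chr12:39733269-39733518, chr17:63081277-63081526 and chr20:33172244-33172493, all on the plus strand. Capitals mark matches on either strand to GGGCGG, the core of a GC box, and to CCAAT.
Atp2a2: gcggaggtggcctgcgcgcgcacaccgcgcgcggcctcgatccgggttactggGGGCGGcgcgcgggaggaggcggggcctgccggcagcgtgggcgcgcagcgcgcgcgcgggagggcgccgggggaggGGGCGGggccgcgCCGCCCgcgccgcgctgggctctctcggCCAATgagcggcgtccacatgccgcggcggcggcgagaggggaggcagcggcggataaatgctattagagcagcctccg
Ryr2: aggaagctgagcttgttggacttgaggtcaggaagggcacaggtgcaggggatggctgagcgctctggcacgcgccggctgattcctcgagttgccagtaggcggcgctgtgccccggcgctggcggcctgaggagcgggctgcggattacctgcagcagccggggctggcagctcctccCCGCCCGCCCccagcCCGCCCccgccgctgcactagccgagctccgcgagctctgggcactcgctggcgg
Pln: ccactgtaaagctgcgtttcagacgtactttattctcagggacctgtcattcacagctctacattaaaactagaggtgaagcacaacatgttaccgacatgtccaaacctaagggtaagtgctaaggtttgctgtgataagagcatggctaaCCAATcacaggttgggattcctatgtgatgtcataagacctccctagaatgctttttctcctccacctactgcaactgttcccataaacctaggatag

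Over the 300 bases of each RefSeq entry, which add 50 bases after the start, G and C made up 79% for Atp2a2, 73% for Ryr2 and 45% for Pln, beside a median of 51.7% over 33469 rat promoters. All 10 genes had an entry. GGGCGG was found in 3 of the 10, Atp2a2, Ryr2 and Camk2d, with 3 matches in each, some of them overlapping in Ryr2, and in 33.1% of all promoters. CCAAT was found in 5 of the 10 and in 37.5% of all promoters, and CANNTG, the E box, in 7 of the 10 and 72.1%. TATAAA was in 0 of the 10 and 14.2% of all promoters, and CATTCC, the M-CAT element, in 1 of the 10 (Cacna1c) and 14.2%. A MEF2 element was found in Casq2 alone of the 10 and in 3.29% of all promoters, and a CArG box in 0 of the 10 and 1.64%. Both strands were searched for every motif, and a match is a match of letters only.

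Pln encodes phospholamban, the inhibitor of the SERCA2a pump. Its leading probe set (1370157_at) read 12.72, 12.25, 12.49, 12.58, 12.77 and 12.71 in diabetic myocardium from sham to day 56, against 12.65, 12.47, 12.40, 12.38, 12.46 and 12.53 in non-diabetic myocardium. The diabetic value was the higher of the pair at every time point but day 1, with overlapping groups and a difference of 0.10 ± 0.09 (SE, 6 pairs; adjusted p = 0.722 from limma). The third probe set (1384689_at) read 9.10, 7.33, 7.94, 8.87, 8.89 and 8.65 in diabetic and 8.74, 7.83, 7.87, 8.46, 8.45 and 8.60 in non-diabetic myocardium. The 4 arrays of day 1 and day 7 were its 4 lowest. The second (1388876_at) ranged over 11.68 to 12.37 on diabetic and 11.40 to 12.24 on non-diabetic arrays. Set against the pump, the leading probe set of Pln minus that of Atp2a2 lay below its sham mean on all 10 ligated arrays, at -0.41 to -0.04 on the log2 scale, while the diabetic sham array lay at 0.15 and the non-diabetic one at -0.15.

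Ryr2 encodes the cardiac ryanodine receptor, the channel that releases calcium from the store. Its leading probe set (1382088_at) read 10.60, 10.56, 10.97, 10.45, 11.60 and 11.81 in diabetic myocardium from sham to day 56, against 10.85, 11.09, 10.96, 10.67, 10.80 and 11.88 in non-diabetic myocardium. Both day 56 arrays lay above all the others, and the diabetic day 28 array came next. The difference for diabetes was -0.04 ± 0.16 (SE, 6 pairs; adjusted p = 0.948 from limma). The second probe set (1382775_at) read 6.49, 8.36, 9.27, 7.79, 8.46 and 9.45 in diabetic myocardium, against 7.66, 9.45, 9.12, 9.54, 6.46 and 9.82 in non-diabetic myocardium. Every diabetic ligated array read above both sham arrays, and of the non-diabetic ligated arrays only day 28 did not.

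Casq2, Trdn and Hrc act on the release channel from inside the store. Casq2 encodes calsequestrin 2, the main calcium buffer of the cardiac store. Its second probe set (1387401_at) read 10.87, 10.75, 10.93, 10.48, 11.20 and 11.29 in diabetic myocardium from sham to day 56, against 10.42, 10.58, 10.77, 10.34, 10.50 and 10.83 in non-diabetic myocardium. The diabetic array was higher in 6 of 6 pairs, by 0.15 to 0.70, and the mean of 0.35 ± 0.12 (SE, 6 pairs) had an adjusted p of 0.337 from limma. The leading probe set (1368988_at) was higher in 5 of 6 pairs, at 11.17 to 11.62 on diabetic and 11.08 to 11.39 on non-diabetic arrays, with a difference of 0.16 ± 0.10. A direction kept in all 6 pairs was found upward in 1 of the 23 member probe sets and 2.42% of all, and downward in 1 of the 23 and 3.81% of all.

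Trdn encodes triadin, which ties calsequestrin to the release channel. The leading probe set (1370739_x_at), whose suffix marks probes that may also bind other transcripts, read 9.09, 8.13, 8.98, 7.64, 8.92 and 8.60 in diabetic and 8.49, 8.85, 8.74, 7.62, 7.10 and 8.17 in non-diabetic myocardium. Both day 14 arrays and the non-diabetic day 28 array were the 3 lowest. The difference for diabetes was 0.40 ± 0.26 (SE, 6 pairs; adjusted p = 0.622 from limma). Omitting the day 28 pair gave 0.12, and omitting that of day 1 gave 0.62. The second (1370738_a_at) gave 6.36 to 7.99 on diabetic and 6.10 to 8.01 on non-diabetic arrays, and the third (1370198_at) 5.76 to 6.35 on diabetic and 5.11 to 7.33 on non-diabetic arrays. The fourth (1371138_at) was not kept. Hrc encodes the histidine-rich calcium-binding protein, a store protein that binds triadin, and had 1 probe set (1377499_a_at). It read 10.49, 9.32, 10.42, 10.28, 10.82 and 10.68 in diabetic and 10.83, 10.32, 10.44, 10.83, 10.45 and 11.16 in non-diabetic myocardium. The diabetic day 1 array was the lowest of the 12, and the diabetic array was the lower of the pair at every time point but day 28, with a mean of -0.34 ± 0.17 (SE, 6 pairs; adjusted p = 0.502 from limma). It was -0.21 without the day 1 pair.

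Jph2 encodes junctophilin 2, which holds the cell membrane and the store together at the junctions where release takes place, and had 1 probe set (1372159_at). It read 9.54, 9.59, 9.66, 9.86, 9.61 and 10.21 in diabetic myocardium from sham to day 56, against 10.17, 9.90, 10.19, 10.42, 10.06 and 10.35 in non-diabetic myocardium. The diabetic array was lower in 6 of 6 pairs, with differences from -0.62 at sham to -0.14 at day 56, and of the diabetic arrays only that of day 56 lay within the non-diabetic range. The mean difference of -0.44 ± 0.12 (SE, 6 pairs; 95% interval -0.71 to -0.16) had an unadjusted p of 0.0047 and an adjusted p of 0.221 from limma. It was the largest mean difference among the 10 leading probe sets, and it stayed between -0.49 and -0.40 when any pair was left out.

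The calcium paths across the cell membrane were measured through Cacna1c and Slc8a1. Cacna1c encodes the pore of the L-type channel. Its leading probe set (1370452_at) read 7.34, 7.36, 7.86, 7.39, 8.41 and 8.09 in diabetic and 7.42, 7.93, 7.63, 7.23, 7.69 and 7.74 in non-diabetic myocardium. The diabetic arrays of days 28 and 56 were the highest of the 12, and the difference for diabetes was 0.14 ± 0.17 (SE, 6 pairs; adjusted p = 0.825 from limma). Omitting the day 28 pair gave 0.02, and omitting that of day 1 gave 0.28. The same 2 arrays led in the second probe set (1370451_a_at), at 6.32 and 6.31, beside 5.25 to 5.39 on the other diabetic and 5.10 to 5.79 on the non-diabetic arrays. Slc8a1 encodes the sodium-calcium exchanger NCX1. Its leading probe set (1372449_at) read 9.13, 9.68, 9.93, 9.30, 9.90 and 9.94 in diabetic and 9.23, 9.87, 9.79, 8.62, 9.15 and 9.74 in non-diabetic myocardium. The non-diabetic day 14 array was the lowest, and the difference for diabetes was 0.25 ± 0.16 (SE, 6 pairs; adjusted p = 0.622 from limma). It was 0.14 without the day 28 pair. The second (1370588_a_at) stood at 6.22 and 6.41 on the diabetic arrays of days 28 and 56 and at 6.0 on the non-diabetic array of day 56, above the 4.66 to 5.24 of the other 9 arrays. Its mean of 5.30 over all arrays passed the brightness filter of 5.20 through the day 56 arrays, as the other 10 averaged 5.12, so its differences from sham at day 56 and its slope are given as description.

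Camk2d encodes the delta form of the calcium/calmodulin-dependent kinase II, which phosphorylates phospholamban and the release channel. The leading probe set (1368834_at) read 9.59, 9.61, 9.76, 9.26, 9.76 and 9.63 in diabetic and 9.67, 9.72, 9.92, 8.70, 9.0 and 9.67 in non-diabetic myocardium, with the non-diabetic arrays of days 14 and 28 lowest. The second (1371263_a_at) read 7.13, 5.65, 5.47, 6.63, 7.57 and 7.45 in diabetic and 6.78, 5.14, 6.39, 5.66, 6.34 and 7.23 in non-diabetic myocardium. Its 4 lowest values were those of the day 1 arrays, the diabetic day 7 array and the non-diabetic day 14 array. The third (1368833_at) stayed within 5.30 to 5.58 on diabetic and 5.14 to 5.71 on non-diabetic arrays. None of the 3 passed the test for diabetes, with differences of 0.15 ± 0.16, 0.39 ± 0.23 and -0.06 ± 0.10. Without the day 28 pair the first of these was 0.03 and the second 0.22.

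**Figure D2:**
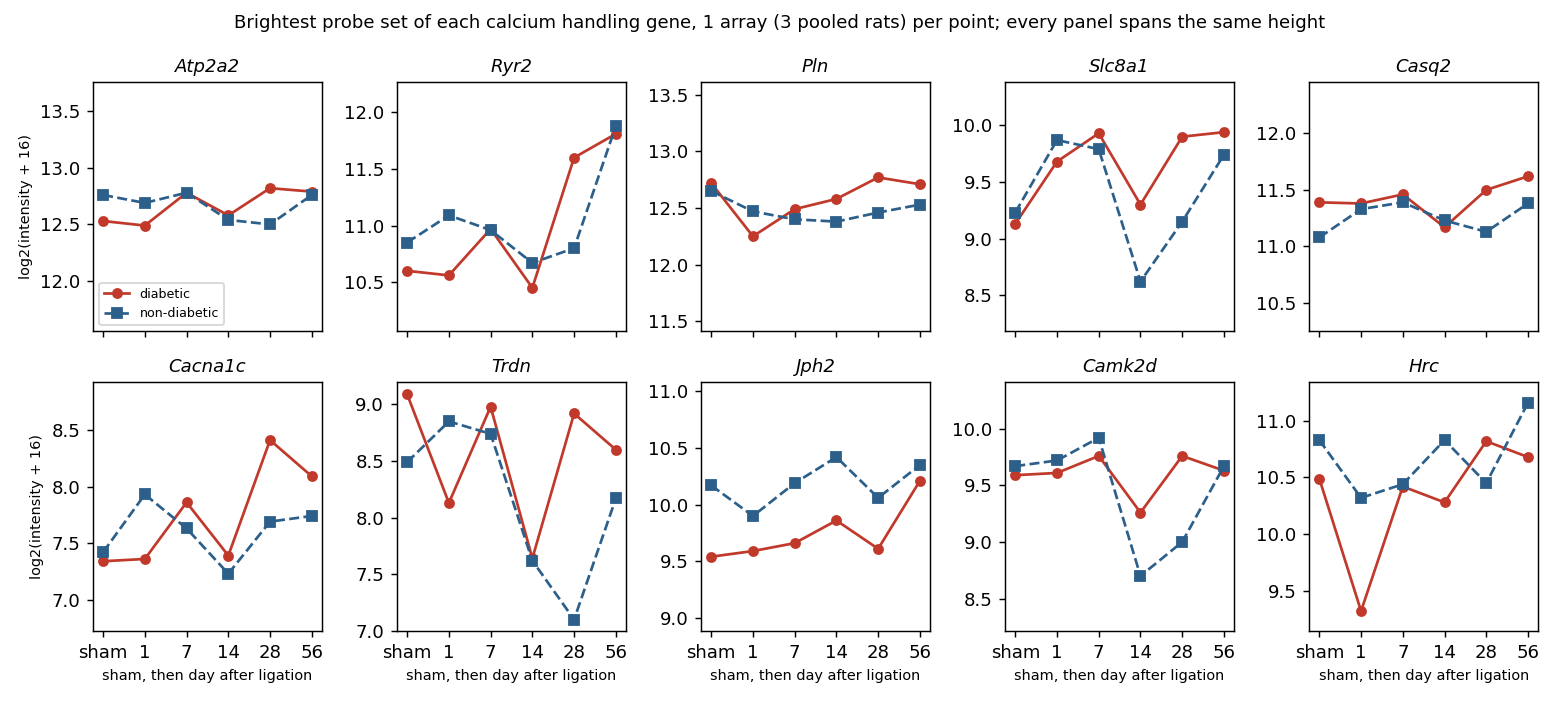
Log2(intensity + 16) of the brightest probe set of each of the 10 genes at sham and on days 1, 7, 14, 28 and 56 after ligation, with 1 array of 3 pooled rats per point, diabetic in red circles and non-diabetic in blue squares. The diabetic line of Jph2 lies below the non-diabetic one at every time point, and most of the other lines part at day 28.

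The day 28 pair set the diabetic and non-diabetic arrays apart for most of these genes at once. In diabetic myocardium 21 of the 23 probe sets read higher than in non-diabetic myocardium at day 28, beside 45.1% of all probe sets, and 15 were higher by over 0.5 on the log2 scale, beside 16.5% of all. The median difference was 0.72 for the members and -0.068 over all probe sets. The exceptions were Jph2 at -0.45 and a Camk2d probe set (1368833_at) at -0.07. The largest difference of a gene was 2.24 for Atp2a2 (1398862_at), 2.0 for Ryr2 (1382775_at), 1.82 for Trdn, 1.31 for Slc8a1, 1.23 for Camk2d and 1.07 for Cacna1c. The leading probe sets of Atp2a2 and Pln differed by 0.31 each. Over the 11 probe sets with a mean of at least 9, the median was 0.44. The pair is 1 pool against 1 pool and has no test of its own.

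The non-diabetic array of that pair also held more signal of other cell types. Summed intensities at day 28 were 8820 on the diabetic against 21100 on the non-diabetic array for 9 of 9 fibroblast markers. They were 1600 against 3640 for 8 of 8 macrophage markers and 248 against 1250 for 6 of 6 neutrophil markers. For the 11 cardiomyocyte markers they were 66800 against 58100, and for 7 of 8 endothelial markers 3270 against 4050. Over all arrays the fibroblast sum ran from 8020 to 27100 on diabetic and from 7540 to 27900 on non-diabetic arrays, the macrophage sum from 1020 to 3030 on diabetic and 524 to 3640 on non-diabetic arrays, and the neutrophil sum from 79.7 to 2480 on diabetic and 110 to 2430 on non-diabetic arrays. Cxcr2 of the neutrophils was too dim to be kept for testing but is part of the sum. Cdh5 of the endothelium had no probe set, and no value in the table was 0. The RNA quality measures differed in this pair too. Beta-actin 3' minus 5' was 0.38 on the diabetic and 0.59 on the non-diabetic array, a difference of -0.21, where the other pairs differed by -0.04 to 0.01. GAPDH 3' minus 5' was 0.24 on the diabetic and 0.48 on the non-diabetic array, the highest of the 12. The part of these cells and of RNA quality in the day 28 difference was not tested.

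In the 5 other pairs the members did not share a direction of that size. At day 1 the diabetic array was the higher in 5 of 23 and lower by over 0.5 in 7, where 14.2% of all probe sets were lower by that much, with medians of -0.22 for the members and -0.094 for all. Those 7 included Trdn in 3 probe sets, Ryr2 in 2, Cacna1c and Hrc. The members' medians were 0.01 at sham, 0.01 at day 7, 0.12 at day 14 and 0.06 at day 56.

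**Figure D3:**
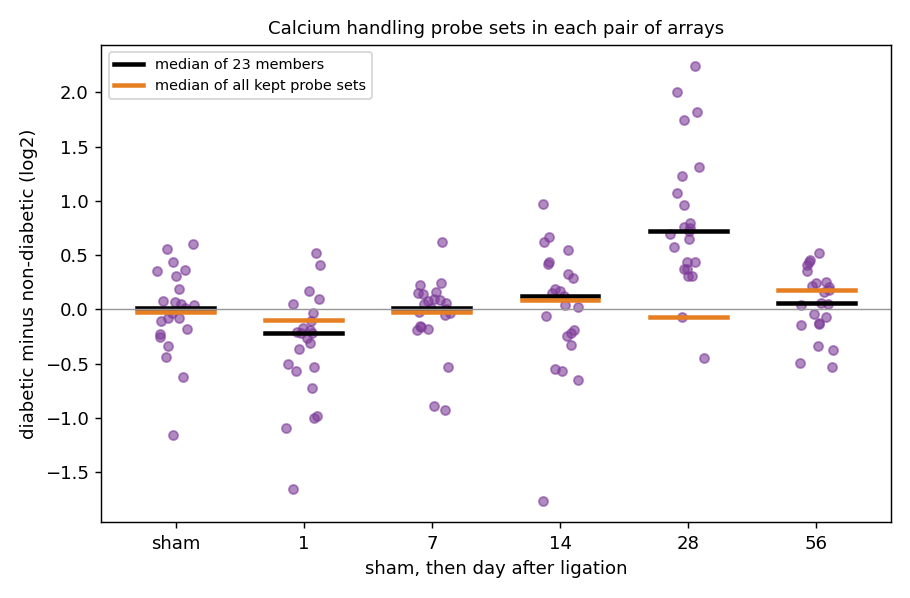
Diabetic minus non-diabetic log2 difference of the 23 tested probe sets in each of the 6 pairs of arrays, with 1 point per probe set, a black bar for their median and an orange bar for the median of all 18625 probe sets. The points at day 28 lie mostly above 0 with a median of 0.72, while the medians of the other pairs lie between -0.22 and 0.12.

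Whether the diabetic minus non-diabetic difference varied with ligation or with the day was tested by interaction terms, and no probe set passed in either. The background was 0% for diabetes by ligation and 0% for diabetes by log2 of the day. With unadjusted p-values under 0.05 there were 0 of 23 for ligation, beside 0.671% of all, and 3 of 23 for log2 of the day, beside 4.50% of all. The 3 were the tested probe sets of Trdn, at 0.29 ± 0.13, 0.40 ± 0.15 and 0.26 ± 0.11 per doubling of the day (SE, 10 ligated arrays), each with an adjusted p of 1 from limma. For 22 of the 23 the term lay above 0, with a median of 0.12 beside 0.035 over all probe sets. The share of all probe sets above 0 was not counted, and the 23 come from 10 genes. With array medians set equal the term lay above 0 for 21, with a median of 0.09 beside 0.01 over all. With quantile normalization it did so for 21, with a median of 0.08 beside 0. Without the day 28 pair it lay above 0 for 18 of the 23, with a median of 0.06.

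At day 1 after ligation, 2 of the 23 probe sets had fallen relative to sham and 0 had risen, 1 of Pln and 1 of Camk2d. The background was 7.47% of all probe sets, and the members' share was 8.7%. The comparisons of single days share the 2 sham arrays. The third probe set of Pln was lower by -1.34 ± 0.28 (SE, 2 arrays against 2; adjusted p = 0.0186 from limma), and the second of Camk2d by -1.56 ± 0.41 (adjusted p = 0.0427). The other probe sets of Pln also lay below sham without passing, the leading one at -0.32 (adjusted p = 0.219) and the second at -0.41 (adjusted p = 0.275). The leading one of Camk2d stood at 0.04, as the plot of probe sets by gene shows. Hrc stood at -0.84 ± 0.29, with an adjusted p of 0.0973. At day 7 the third probe set of Pln alone passed, at -1.02 ± 0.28 (adjusted p = 0.0493), where the background was 7.65% of all probe sets. Without the day 56 pair the Camk2d call of day 1 and the Pln call of day 7 were lost (adjusted p = 0.0686 and 0.0727), and other settings gave 0.0502 to 0.068 where a call was lost. The Pln call of day 1 stood in all 12 settings tried.

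Markers of other cells moved on the same days. At day 1 neutrophil markers were called higher in 3 of 5, and at day 7 fibroblast markers in 5 of 9 and macrophage markers in 1 of 8. On both days 1 of 4 lymphocyte markers was called lower and 1 of 3 Schwann and neural markers higher. Cardiomyocyte markers were called in 0 of 11 on either day. The background was 7.47% of all probe sets at day 1 and 7.65% at day 7, so 0 of 11 does not set them apart. The part of these cells in the calls of Pln and Camk2d was not tested.

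For the mean of the 5 days against sham, 0 of 23 passed, with a background of 0.107%, and 3 of 23 had an unadjusted p under 0.05, beside 10.9% of all. The differences behind these were 1.7 ± 0.52 for Ryr2 (1382775_at), 1.25 ± 0.43 for Atp2a2 (1398862_at) and -0.63 ± 0.22 for Pln (1384689_at), with adjusted p-values of 0.266, 0.320 and 0.318 from limma. The absence of calls depended on the day 28 pair. Without it the comparison becomes the mean of the remaining days against sham, which is not the same quantity. Ryr2 (1382775_at) then stood at 2.03 (adjusted p = 0.00457 from limma) and Atp2a2 (1398862_at) at 1.41 (adjusted p = 0.00364). These were 2 of 23, or 8.7%, beside 3.36% of all probe sets. The omission was looked at in detail after seeing the data, and these 2 probe sets differed by 2.0 and 2.24 in the omitted pair. The 2 shares are therefore not on a par and are given as description.

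**Figure D4:**
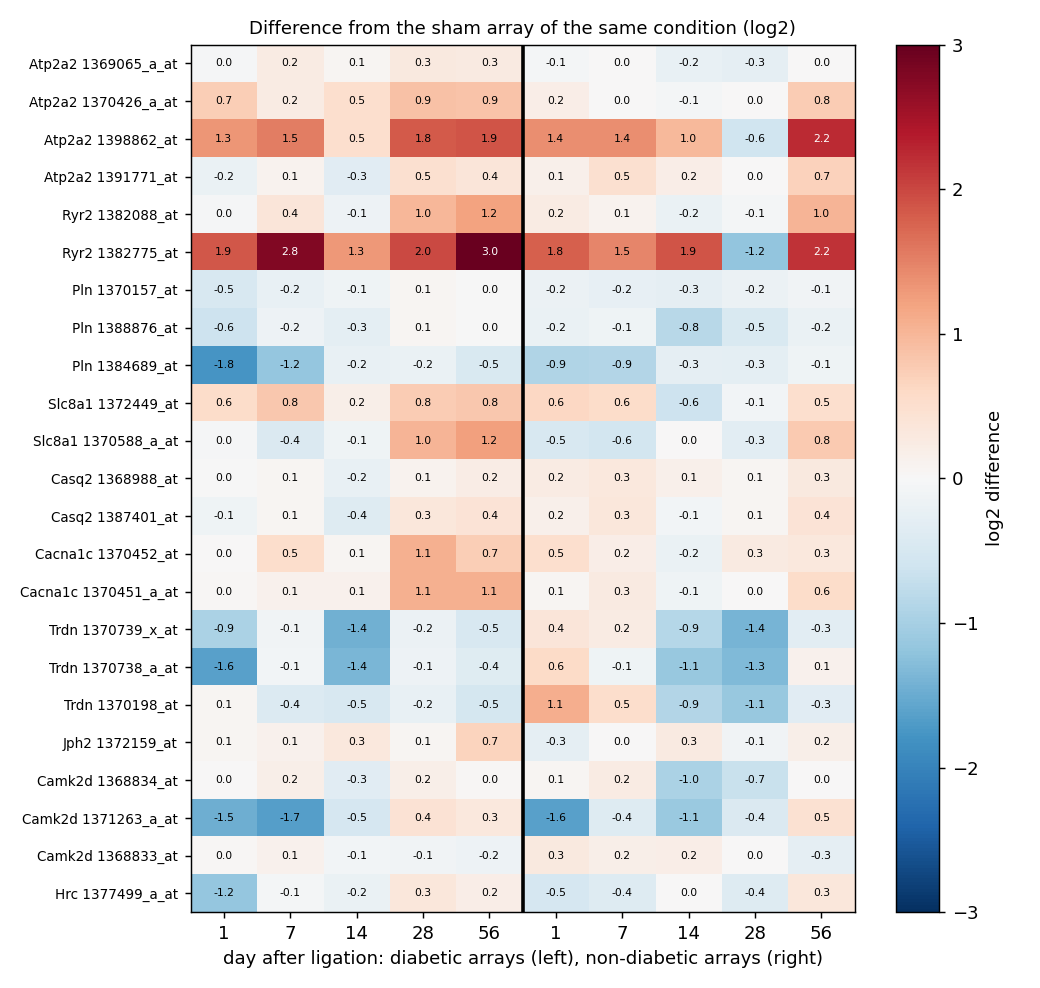
Difference in log2(intensity + 16) between each ligated array and the sham array of the same condition for the 23 tested probe sets, with diabetic arrays in the left 5 columns and non-diabetic arrays in the right 5. Red marks values above sham and blue below; the second Ryr2 probe set and the third of Atp2a2 are red in all columns but non-diabetic day 28.

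On days 14, 28 and 56 no member passed against sham, and the background was 0% on each of these days. Unadjusted p-values under 0.05 were found at day 14 for 5 of 23 beside 11.7% of all, at day 28 for 1 of 23 beside 3.62%, and at day 56 for 8 of 23 beside 16.4%. The 8 at day 56 were all higher than sham. They comprised both probe sets of Ryr2, at 1.12 ± 0.27 and 2.56 ± 0.67, both of Slc8a1, at 0.66 ± 0.28 and 1.00 ± 0.30, 3 of Atp2a2 and 1 of Cacna1c at 0.80 ± 0.27, with adjusted p-values of 0.145 to 0.295 from limma. The second probe set of Slc8a1 is among the 8, although it had passed the brightness filter through the day 56 arrays, and its value is given as description. The median of the 23 at day 56 was 0.39, while that of all probe sets was -0.12. With array medians set equal these were 0.39 and -0.11, and with quantile normalization 0.51 and -0.05.

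The count at day 56 depended on the day 28 pair, which enters the error of every comparison. Without it 5 of the 23 passed at day 56, or 21.7%, beside 4.09% of all probe sets. They were Atp2a2 (1398862_at, adjusted p = 0.00102), both probe sets of Ryr2 (0.00726 and 0.00389), Cacna1c (1370451_a_at, 0.0457) and the dim Slc8a1 probe set, which had entered the test through these arrays (1370588_a_at, 0.0145). All were higher than sham. This omission was looked at in detail after seeing the data. The members differed most in the omitted pair, with a median of 0.72 beside -0.068 over all probe sets. Their share of calls without it is therefore not on a par with that of all probe sets, and both are given as description. Other measures differed between the day 56 and the sham arrays too. The macrophage sum was 1020 in diabetic and 524 in non-diabetic myocardium at day 56, against 1680 and 2130 in sham myocardium, and the neutrophil sum 79.7 and 110 against 288 and 386. The sums of the 11 cardiomyocyte markers were 65400 in diabetic and 64100 in non-diabetic myocardium at day 56, against 55500 and 62500 in sham, and beta-actin 3' minus 5' was 0.37 and 0.41 against 0.49 and 0.50. Their part in the day 56 differences was not tested. Labelled age was 18 weeks for both sham arrays, against 26 weeks in diabetic and 22 weeks in non-diabetic rats at day 56. Age and time after ligation cannot be told apart. The same omission gave 5 calls at day 1 and 3 at day 7, beside 14.5% and 15.3% of all, adding the higher values of Atp2a2 (1398862_at) and Ryr2 (1382775_at) on both days and the lower value of Hrc at day 1.

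**Figure D5:**
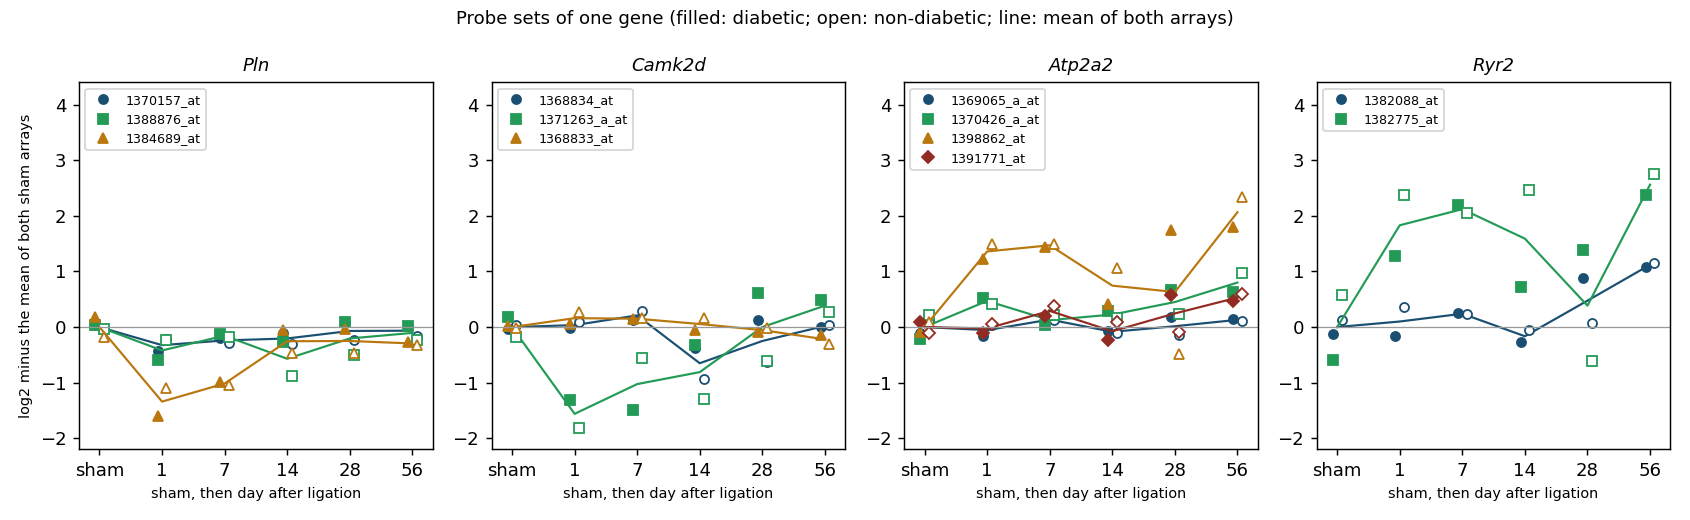
Log2(intensity + 16) minus the mean of both sham arrays for each tested probe set of Pln, Camk2d, Atp2a2 and Ryr2, with filled symbols for diabetic arrays, open symbols for non-diabetic arrays and a line through the mean of both. The third Pln and second Camk2d probe sets lie lowest at day 1, where the leading ones of the same genes stand at -0.32 and 0.04.

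Between day 1 and day 56, 6 of the 23 probe sets followed the log of the day, 26.1% beside 28.5% of all probe sets and 27.0% of leading ones. Those that rose with time were Camk2d (1371263_a_at) by 0.33 ± 0.06 per doubling of the day, Pln (1384689_at) by 0.21 ± 0.04, Slc8a1 (1370588_a_at) by 0.20 ± 0.05, Hrc by 0.18 ± 0.05 and Ryr2 (1382088_at) by 0.14 ± 0.04. Trdn (1370198_at) fell, with -0.21 ± 0.06. The Slc8a1 probe set is among the 6, although it had passed the brightness filter through the day 56 arrays, and its slope is given as description. The adjusted p-values from limma lay between 0.00454 and 0.0355. Without the arrays of days 1 and 7 no slope was called, in the members or in the whole table. The slopes of Pln and Trdn then stood at -0.02 and 0.12, that of Hrc at 0.18, and those of Ryr2, Camk2d and Slc8a1 at 0.64, 0.6 and 0.53. Leaving out the day 1 pair gave 3 calls and the day 56 pair 1. Without the day 56 pair the slope of Ryr2 was 0.04 (adjusted p = 0.707) and that of Slc8a1 0.11 (adjusted p = 0.271), and without the day 1 pair they were 0.33 and 0.49. Camk2d stood at 0.5 without the day 1 pair and at 0.29 (adjusted p = 0.0588) without the day 56 pair. Trdn and Hrc were not called with either of these pairs left out, and Pln was not called without the day 1 pair. Cell type markers were called in the slope too. Lower with time were 4 of 5 neutrophil and 2 of 8 macrophage markers. Higher were 2 of 11 cardiomyocyte, 2 of 9 fibroblast, 2 of 7 smooth muscle and pericyte and 2 of 5 skeletal muscle markers. The other lists had at most 1 call in either direction. The part of these cells in the slopes was not tested. Labelled age also rose, from 18 weeks at day 1 to 26 weeks in diabetic and 22 weeks in non-diabetic rats at day 56. A slope on the day cannot be told apart from one on age.

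Probe sets of the same gene did not always agree. Over the 19 pairs of tested probe sets within a gene, Pearson's r across the 12 arrays had a median of 0.62, lay above 0 in 17 pairs and over 0.5 in 13. It was 0.92 for the pair of Casq2, 0.82 for Cacna1c, 0.54 for Ryr2 and 0.25 for Slc8a1. It ran from 0.55 to 0.91 in Trdn, 0.43 to 0.83 in Pln, 0.39 to 0.75 in Atp2a2 and -0.82 to 0.20 in Camk2d. All of these share arrays, depth of signal and the day 28 pair, and are given as description.

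Across genes, most leading probe sets moved together. The correlation of a gene with the mean of the other 9 across the 12 arrays was 0.90 for Atp2a2, 0.79 for Ryr2, 0.73 for Cacna1c and 0.65 for both Slc8a1 and Casq2. It was 0.64 for Camk2d, 0.52 for Trdn, 0.50 for Pln and 0.32 for Hrc, and it was -0.08 for Jph2. The mean of the 10 genes, each centred on its own mean, was highest on both day 56 arrays (diabetic 0.30, non-diabetic 0.23) and the diabetic day 28 array (0.30). It was lowest on the diabetic day 1 array (-0.28), the non-diabetic day 28 array (-0.28) and both day 14 arrays (-0.26 and -0.29).

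Among 10613 other genes, those whose 12 values lay closest to this mean were Plcb4, a phospholipase C (r = 0.96), Nr3c2, the mineralocorticoid receptor (0.95), and Iqub, Dsp and Rbm20 (0.94 each). Dsp encodes desmoplakin of the cell junctions and Rbm20 a splicing regulator of heart muscle. Closest to Atp2a2 were Plcb4 (0.92), Txlnb and Cpne3 (0.91 each). Closest to Ryr2 were Dsp (0.97), Rbm20 (0.95) and Cped1 (0.93), and closest to Pln were Ube2b (0.95), Tnmd and Frmd5 (0.94 each). These are the highest of many correlations over the same 12 arrays and carry no test.

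Of 88 other genes of calcium handling, 79 had a probe set and 65 were bright enough to be tested. For diabetes 0 of 65 passed in limma's fit, beside 0.376% of all probe sets, 8 had an unadjusted p under 0.05, beside 10.6% of all, and the median difference was 0.04. The smallest p-values belonged to Asph, Adcy6 and Ryr3. Asph, the gene of the store protein junctin and related forms, stood at -0.55 ± 0.15, lower in 6 of 6 pairs (adjusted p = 0.195 from limma). Adcy6, an adenylyl cyclase, stood at 0.72 ± 0.21 (adjusted p = 0.221 from limma). Ryr3, a ryanodine receptor of other tissues, stood at 0.50 ± 0.15 (adjusted p = 0.255 from limma). Ryr3 passed the brightness filter through the arrays of days 1 and 7, and the diabetic array was the higher on both days. In sham myocardium it read 4.74 in diabetic and 4.76 in non-diabetic rats. Its difference for diabetes is therefore given as description.

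At day 1, 4 of the 65 rose and 1 fell, or 7.69% beside 7.47% of all probe sets, and at day 7 the 2 that rose made 3.08% beside 7.65%. Ryr3 rose by 1.86 ± 0.26, Cacna2d1, a subunit of calcium channels, by 1.5 ± 0.37, Rcan1, an inhibitor of calcineurin, by 1.22 ± 0.29 and Ppp2ca, a catalytic subunit of protein phosphatase 2A, by 1.17 ± 0.30, while Atp2b2, a calcium pump of the cell membrane, fell, at -0.79 ± 0.19 relative to sham. Ryr3 read 7.21 in diabetic and 6.02 in non-diabetic myocardium at day 1, against 4.74 and 4.76 in sham myocardium. Its mean of 5.30 passed the brightness filter of 5.20 through the arrays of days 1 and 7, as the other 8 averaged 4.82, and with no such filter its adjusted p at day 1 was 0.00148. It passed again at day 7 (1.14 ± 0.26), but not with an offset of 64 or with quantile normalization (adjusted p = 0.0618 and 0.0536 from limma). Mcub, a subunit of the mitochondrial uniporter, passed at day 7 as well (1.18 ± 0.32), and in 4 of the 11 alternative settings. Its mean of 5.37 also passed the filter through the arrays of days 1 and 7, as the other 8 averaged 5.07. With no such filter its adjusted p at day 7 was 0.0386 from limma. For Ryr3 and Mcub the differences at days 1 and 7 and the slopes are therefore given as description. Without the day 56 pair Cacna2d1 and Ppp2ca at day 1 and Mcub at day 7 no longer passed (adjusted p = 0.0546, 0.0597 and 0.071 from limma), without the day 7 pair Atp2b2 and Ppp2ca at day 1 (0.0535 and 0.0615), and without the day 1 pair Mcub (0.0662). Over the slope 5 of the 65 rose and 9 fell, or 21.5% beside 28.5% of all probe sets. Those that rose were Akap6, Prkaca, Adcy6, Atp2b2 and Slc8a3, by 0.38, 0.26, 0.22, 0.19 and 0.10 per doubling of the day. Those that fell included Ryr3, at -0.35 ± 0.04, Ppp2ca, Mcub, Jph1 and Mcu, and without the arrays of days 1 and 7 none was called. For the mean of the 5 days, for days 14, 28 and 56 and for both interactions 0 of the 65 were called by limma. The background was 0.107% for the mean and 0% for the others. Unadjusted p-values under 0.05 were found for the mean in 5 of the 65, beside 10.9% of all probe sets. On days 14, 28 and 56 they were found in 8, 1 and 4, beside 11.7%, 3.62% and 16.4%. For the interactions they were found in 0 (ligation) and 8 (log2 of the day), beside 0.671% and 4.50%.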

How the data were processed

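Left ventricular RNA was measured on 12 Affymetrix rat arrays, each with the pooled RNA of 3 rats, as the labels state. Intensity values on a linear scale, as deposited by the authors, come from Affymetrix Expression Console with PLIER, per the submitters' processing notes. Their versions, any scaling and the genome build are not stated there. Of 31042 probe sets that were not controls, 20826 had 1 gene symbol, 436 had several and were given no name, and 9780 were not listed.

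Log2(intensity + 16) was used without further scaling. The offset shrinks the changes of dim probe sets. Probe sets with a mean above the 40th percentile (5.20) were kept. With limma 3.58.1 in R 4.3.3, time point and diabetes were fitted on all 12 arrays (5 residual degrees of freedom, variance trend), with Benjamini-Hochberg adjustment over 18625 probe sets and a threshold of 0.05. The time factor pairs the diabetic and the non-diabetic array of a time point, per the labels. The pipeline was tested on simulated data. The number of arrays limits the precision.

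Groups came from the labels. Sham arrays were grouped by their protocol, although their tissue label mentions an infarct. The non-diabetic day 56 array was kept at day 56. The members and lists were chosen with earlier results of these data known. All member probe sets are named. Of the other calcium genes, those that passed are named, up to 5 in each direction by p, or the 3 with the smallest p for diabetes where none passed. Alternatives were the offset (1 or 64), scaling, filter, variance moderation, arrays left out, an RNA quality covariate and the median over the probe sets of a gene. Counts without the day 28 pair were looked at in detail after seeing the data. Promoter sequences come from RefSeq (GRCr8).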

Additional observations from a re-analysis of the deposited data

Results flagged for a closer look

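For Atp2a2 (probe set 1398862_at), the diabetic minus non-diabetic difference of the day 28 pair, 2.24 on the log2 scale, stood far from the other 5 pairs, which lay between -0.65 and -0.05. Dixon's test on the 6 pair differences marked 1 of the 23 member probe sets, and chance alone marks about 1 in 20. The diabetic array read 8.76 and the non-diabetic array 6.52.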

How the results depend on the processing

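With 1 array per condition and time point, leaving out a replicate means leaving out the pair of a time point. Of the counts of member probe sets under alternative settings, called or higher in the day 28 pair, 131 stayed within 1.5 times the reported count and 13 moved further. Counts of 0 that stayed at 0 are among the 131. The count for day 7 was 0 with an offset of 1 and with the filter at the 60th percentile. The count for day 1 was 1 with an offset of 64 and without the variance trend. The slope count was 0 without the arrays of days 1 and 7. Over the omission of each pair the counts ran from 1 to 7 for the slope, 0 to 2 for the mean of the days, 1 to 5 for day 1, 0 to 3 for day 7 and 0 to 5 for day 56, the high ends being without the day 28 pair and the low end of the slope without the day 56 pair. Days 14 and 28, diabetes and both interactions gave 0 throughout. Of the values of named probe sets, 477 stayed on their side of the threshold, 55 were no longer past it and 18 reversed, and the cause was not tested. Without the arrays of days 1 and 7 the difference for diabetes was 0.04 for Atp2a2 and 0.06 for Ryr2, and the slopes were -0.02 for Pln, 0.12 for Trdn, 0.04 for Ppp2ca and 0.08 for Jph1. Omitting each pair moved Atp2a2 between -0.07 and 0.04 and Ryr2 between -0.21 and 0.05, and the median over probe sets gave 0.02 for Atp2a2. On the arrays of days 1 and 7 alone diabetes gave -0.07 for Pln, -0.02 for Slc8a1, -0.17 for Cacna1c, -0.24 for Trdn and -0.13 for Camk2d. With the beta-actin measure as a covariate it gave -0.07 for Cacna1c, -0.05 for Trdn and -0.04 for Camk2d. As time point is in the fit, the covariate acts through differences within pairs. These were -0.21 at day 28 and -0.04 to 0.01 in the other pairs, so this setting cannot separate RNA quality from the day 28 pair. The count of 21 of 23 at day 28 stayed at 21 under both offsets, equal medians and quantile normalization, and was 18 of 19 with the stricter filter.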
